A study of Mus musculus with 13 samples.

Results

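The genes of type 2 cytokine signalling were examined in mouse epididymal fat. Members were the cytokines Il4, Il13 and Il5, the receptor chains Il4ra, Il13ra1, Il13ra2 and Il2rg, and the transcription factors Stat6 and Gata3. They were chosen by name, as the probe sets annotated to exactly 1 of these symbols. Of the 9 genes, 8 had such a probe set, 1 each, out of 18818 genes tested. The common γ chain Il2rg was not analysed here. Male mice of the background strain C57Bl/6J, aged 6.5 weeks, had 4 days of high fat diet. They were injected into the peritoneum on days 0 and 2, and their fat was taken on day 4. The 4 groups were wild type fat after vehicle (pyridine, 3 arrays), wild type fat after α-galactosylceramide (αGalCer, 100 ng per g body weight, 4 arrays), CD1d knockout fat after vehicle (3 arrays) and CD1d knockout fat after αGalCer (3 arrays). The knockout was the strain B6.129S6-Cd1d1/Cd1d2tm1spb/J, which lacks CD1d in every cell, and no group went without an injection or without the diet. Whether each array came from its own animal is not given in the sources used here.

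αGalCer is a glycolipid that CD1d presents to natural killer T (NKT) cells, lymphocytes that release cytokines within hours of activation. IL-4 binds Il4ra, which pairs with the common γ chain or with Il13ra1. IL-13 uses the Il4ra and Il13ra1 pair, while Il13ra2 binds IL-13 tightly and acts largely as a decoy. Kinases of the JAK family bound to these chains phosphorylate STAT6, which enters the nucleus and switches on target genes, among them the genes of alternatively activated macrophages. GATA3 is the factor that directs T cells and group 2 innate lymphoid cells (ILC2s) to make IL-4, IL-5 and IL-13. In fat, eosinophils and ILC2s are known sources of these cytokines. The comparisons ask which of these genes αGalCer changed, and whether the change needed CD1d.

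The deposited values are log2 expression levels per probe set. A level cannot be compared between genes, and 1 unit is a 2-fold difference. Array medians lay between 5.68 and 5.83. Changes are given with their standard error (SE), and a gene was called where its p from limma, after Benjamini-Hochberg adjustment across the 18818 genes, was under 0.05. Cd1d1, the targeted gene, lay between 9.08 and 10.86 on the 7 wild type arrays and between 2.64 and 4.03 on the 6 knockout arrays. Transcripts of skeletal muscle were high on 3 knockout arrays (vehicle replicates 1 and 2, αGalCer replicate 3), and wild type vehicle replicate 3 had the highest mean of epididymis genes. Calls of the members that were lost without these arrays are given below.

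Il4, Il13 and Il5 are neighbours on chromosome 11, and Il4ra lies on chromosome 7. The sequences around the starts of Il4, Il13 and Il4ra are shown because these are the cytokines and the shared receptor chain on which the comparisons turn. Each is the RefSeq window (GRCm38.p6) from 250 bases before to 50 bases after the start of the gene, 300 bases in all, printed 5′ to 3′ on the strand of the gene. The Il4 window is chr11:53618616-53618915 (minus strand), the Il13 window chr11:53634653-53634952 (minus strand) and the Il4ra window chr7:125552021-125552320 (plus strand). Capitals mark TTCNNNNGAA, the spacing that STAT6 is known to prefer. The motif reads the same on both strands.
Il4: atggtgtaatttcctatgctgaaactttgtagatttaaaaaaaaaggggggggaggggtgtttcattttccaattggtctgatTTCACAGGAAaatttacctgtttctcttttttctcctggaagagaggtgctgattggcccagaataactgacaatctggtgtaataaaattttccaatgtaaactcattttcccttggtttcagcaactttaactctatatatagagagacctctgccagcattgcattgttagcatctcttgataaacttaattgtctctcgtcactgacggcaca
Il13: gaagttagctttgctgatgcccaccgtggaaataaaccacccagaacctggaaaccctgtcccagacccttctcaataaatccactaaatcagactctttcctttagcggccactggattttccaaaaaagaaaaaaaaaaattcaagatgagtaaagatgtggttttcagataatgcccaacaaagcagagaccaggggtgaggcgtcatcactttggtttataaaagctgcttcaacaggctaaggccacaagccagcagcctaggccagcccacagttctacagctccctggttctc
Il4ra: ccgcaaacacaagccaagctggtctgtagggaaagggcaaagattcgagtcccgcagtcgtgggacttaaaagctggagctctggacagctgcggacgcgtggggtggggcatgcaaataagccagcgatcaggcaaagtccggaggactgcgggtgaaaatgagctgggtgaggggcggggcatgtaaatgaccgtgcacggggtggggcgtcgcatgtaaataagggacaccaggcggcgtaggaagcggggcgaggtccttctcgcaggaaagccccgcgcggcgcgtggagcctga
The Il4 window held 1 match, which begins 167 bases before the start. No match was found in these letters for Il13 or Il4ra. Among the 10 windows of the 9 genes (Il4 has a pair), 1 held TTCNNNNGAA, and 1, the other Il4 window, held TTCNNNGAA, the spacing of other STATs. Of all 32851 promoter windows in the table, 6.95% held TTCNNNNGAA and 8.3% held TTCNNNGAA.

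Il4, the signature cytokine of type 2 immunity, rose after αGalCer in wild type fat. Its log2 level was 3.85, 3.77 and 3.69 on the wild type vehicle arrays and 5.63, 5.68, 5.18 and 5.24 after αGalCer. In knockout fat it was 3.67, 3.63 and 3.91 after vehicle and 3.76, 4.29 and 3.87 after αGalCer. The 4 wild type arrays after αGalCer lay above all 9 others, and the other groups overlapped. The rise was 1.66 ± 0.15 (SE), or 3.17-fold, with a 95% confidence interval of 1.33 to 1.99 (limma, adjusted p = 1.89e-06). It started below the array medians, where RMA is known to compress differences. Whether it did so here was not tested.

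Il13, the effector cytokine closest to IL-4, rose less and with more scatter. Its level was 5.37, 5.20 and 5.09 in wild type fat after vehicle and 6.62, 5.75, 5.41 and 6.08 after αGalCer. In the knockout it was 5.34, 5.37 and 5.72 after vehicle and 5.42, 5.22 and 5.37 after αGalCer. The wild type groups did not overlap, but wild type αGalCer replicate 3 (5.41) lay within the range of the knockout arrays. The rise in wild type was 0.74 ± 0.22, or 1.67-fold (limma, adjusted p = 0.0164). Without wild type vehicle replicate 3 it was 0.68, with an adjusted p of 0.0624, and was no longer called. With 1 array left out at a time the rise ran from 0.525 to 0.927.

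Il5, the cytokine that sustains eosinophils, was 3.29, 3.34 and 3.25 on the wild type vehicle arrays and 4.11, 3.74, 3.60 and 4.28 after αGalCer. In the knockout it was 3.17, 3.44 and 3.49 after vehicle and 3.36, 3.35 and 3.65 after αGalCer. The wild type groups were separate, while 1 knockout array after αGalCer (3.65) exceeded the lowest wild type array after αGalCer (3.60). Il5 rose by 0.64 ± 0.15 on the log2 scale (limma, adjusted p = 0.00349). All its levels were far below the array medians, so no fold is given. The rises of all 3 cytokines are changes in RNA of the whole tissue. In such bulk samples more cells of a type and more RNA per cell cannot be told apart, which applies to every gene below.

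**Figure D1:**
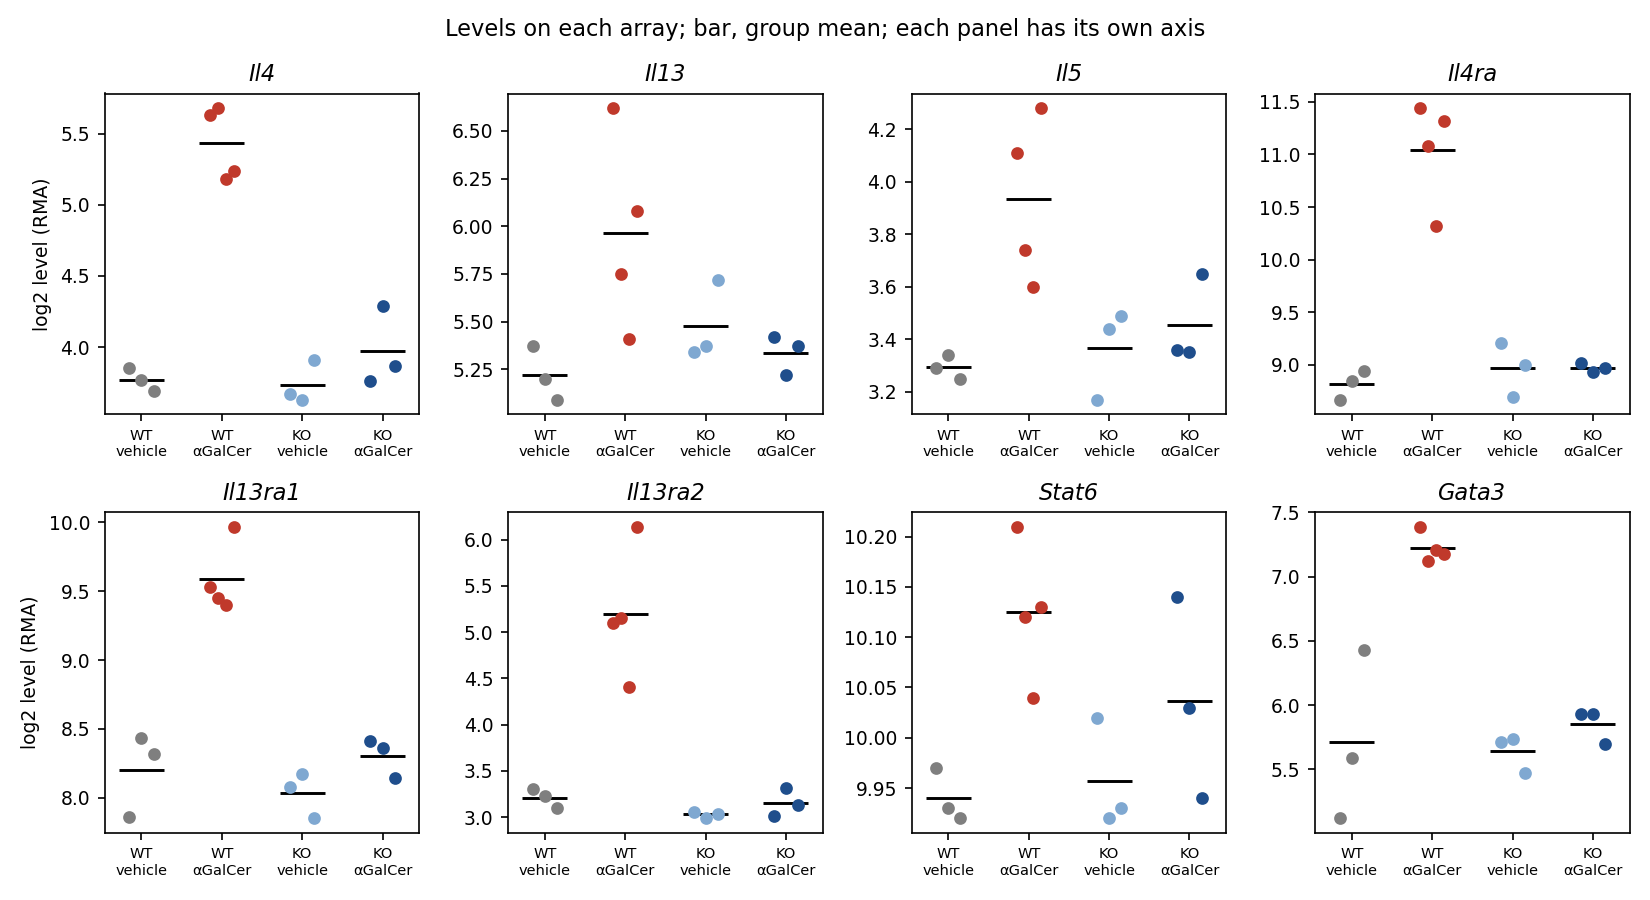
The log2 level (RMA) of each measured gene on each of the 13 arrays, grouped by genotype (WT, wild type; KO, CD1d knockout) and injection; points are arrays, bars are group means, and each panel has its own axis. The wild type arrays after αGalCer lie above all others for Il4, Il4ra, Il13ra1, Il13ra2 and Gata3, and share part of their range with knockout arrays for Il13, Il5 and Stat6.

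All 3 measured receptor chains rose in wild type fat. Il4ra, the chain that the receptors for IL-4 and IL-13 share, was at 8.67, 8.85 and 8.94 after vehicle and at 11.44, 11.08, 10.32 and 11.32 after αGalCer. In the knockout it was 9.21, 8.70 and 9.0 after vehicle and 9.02, 8.93 and 8.97 after αGalCer. The lowest wild type array after αGalCer, replicate 3, was more than 1 unit above the highest of the other 9 arrays. Il4ra rose by 2.22 ± 0.22, or 4.66-fold, with a confidence interval of 1.75 to 2.69 (limma, adjusted p = 3.01e-06).

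Il13ra1, which pairs with Il4ra to bind IL-13, was 7.86, 8.43 and 8.32 on the wild type vehicle arrays and 9.53, 9.45, 9.40 and 9.97 after αGalCer. In knockout fat it was 8.08, 8.17 and 7.85 after vehicle and 8.41, 8.36 and 8.14 after αGalCer. The wild type αGalCer group lay above every other array. The rise was 1.39 ± 0.16, or 2.61-fold (adjusted p = 1.46e-05). Il13ra2, the decoy chain, was at 3.30, 3.23 and 3.10 in wild type fat after vehicle and rose to 5.10, 5.15, 4.41 and 6.14 after αGalCer. In the knockout it was 3.06, 2.99 and 3.04 after vehicle and 3.01, 3.32 and 3.13 after αGalCer. It went from a level far below the array medians to one near them, and its 4 treated arrays spread over 1.73 units (SD 0.71). The fitted rise was 1.99 ± 0.28 on the log2 scale (adjusted p = 6.72e-05). No fold is given, since the vehicle level lay close to the lowest signals of the arrays.

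Stat6, the transcription factor that relays both cytokines, changed least. It was 9.97, 9.93 and 9.92 on the wild type vehicle arrays and 10.21, 10.12, 10.04 and 10.13 after αGalCer. In the knockout it was 10.02, 9.92 and 9.93 after vehicle and 10.14, 10.03 and 9.94 after αGalCer. The wild type groups did not overlap, but the knockout arrays after αGalCer reached into the range of the treated wild type arrays. The rise was 0.18 ± 0.07, or 1.13-fold, with an interval of 0.04 to 0.33 (adjusted p = 0.0444). It was no longer called in 15 of 26 alternative analyses, among them those without any 1 of wild type vehicle replicates 1, 2 and 3, wild type αGalCer replicates 1, 2 and 4, knockout vehicle replicates 2 and 3, or knockout αGalCer replicate 2. Adjusted p ranged from 0.0251 to 0.123 over the alternatives. STAT6 is regulated mainly by phosphorylation, which RNA arrays do not measure.

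Gata3, the type 2 lineage factor, was 5.12, 5.59 and 6.43 on the wild type vehicle arrays and 7.39, 7.12, 7.21 and 7.18 after αGalCer. In knockout fat it was 5.71, 5.74 and 5.47 after vehicle and 5.93, 5.93 and 5.70 after αGalCer. The treated wild type arrays agreed within 0.27 units and lay above all others, while the wild type vehicle arrays differed by 1.31 units. The rise was 1.51 ± 0.23, or 2.85-fold (adjusted p = 0.000131). The highest vehicle array, replicate 3, was also the one with the highest mean of epididymis genes (4.99, against 3.82 and 4.12 on the other wild type vehicle arrays). Without this array the rise of Gata3 was 1.87. The epididymis genes were unlike each other. Over the alternatives the wild type change of Adam7 ran from -3.48 to -0.47, while Lcn5, Lcn8, Lcn9 and Ovch2 stayed between -0.41 and -0.02. Whether these genes bear on the Gata3 values was not tested.

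All 8 measured genes were thus called higher after αGalCer in wild type fat. Over all genes tested, 19.8% were called higher and 22% lower, with a median change of -0.018. For all 8 genes the treated arrays lay apart from the vehicle arrays, which was so for 46.7% of all genes. Il4ra had the largest fitted rise of the 8 and Stat6 the smallest. In every gene the wild type αGalCer group had the highest mean of the 4 groups. Below it, no neighbouring pair of groups was separate for any of the 8 genes.

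In CD1d knockout fat none of the 8 genes was called by limma, and none had an unadjusted p under 0.05. Of all genes, 0% were called higher and 0% lower there, although 1281 had an unadjusted p under 0.05. Fitted changes ran from -0.14 ± 0.24 for Il13 to 0.27 ± 0.17 for Il13ra1. The interval for Il4ra was -0.49 to 0.51 around 0.01, which leaves out its wild type rise of 2.22. That for Il4 was -0.12 to 0.59, below its wild type rise of 1.66. The interval for Il5, -0.26 to 0.43, and that for Il13, -0.66 to 0.38, also ended below the fitted wild type values. However, they overlapped the wild type intervals of Il5 (0.32 to 0.96) and Il13 (0.26 to 1.23). For Stat6 the knockout interval, -0.08 to 0.24, held the wild type value of 0.18.

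The difference between the genotypes in the effect of αGalCer was tested directly. It was called for 5 of the 8 genes, each with the larger rise in wild type fat, where 13.9% of all genes were called in that direction and 14.3% in the other. The difference was 2.21 ± 0.32 for Il4ra (limma, adjusted p = 0.000196), 1.43 ± 0.22 for Il4 (0.00038), 1.11 ± 0.24 for Il13ra1 (0.00323), 1.87 ± 0.41 for Il13ra2 (0.00372) and 1.3 ± 0.34 for Gata3 (0.0104). It was 0.88 ± 0.33 for Il13 (adjusted p = 0.0625), 0.56 ± 0.22 for Il5 (0.0778) and 0.10 ± 0.10 for Stat6 (0.526), none of which passed. Without wild type αGalCer replicate 3 both Il13 (1.07, adjusted p = 0.0123) and Il5 (0.67, 0.0236) passed, and without knockout vehicle replicate 1 Il5 passed (0.0469). Without the 3 knockout arrays with muscle transcripts, 2 genes were called, Il4 and Il4ra. Il13ra1 was then at 0.85 (adjusted p = 0.094), Il13ra2 at 1.86 (0.0575) and Gata3 at 1.05 (0.16), in a fit with 1 knockout vehicle array, assumed to vary like the other groups.

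**Figure D2:**
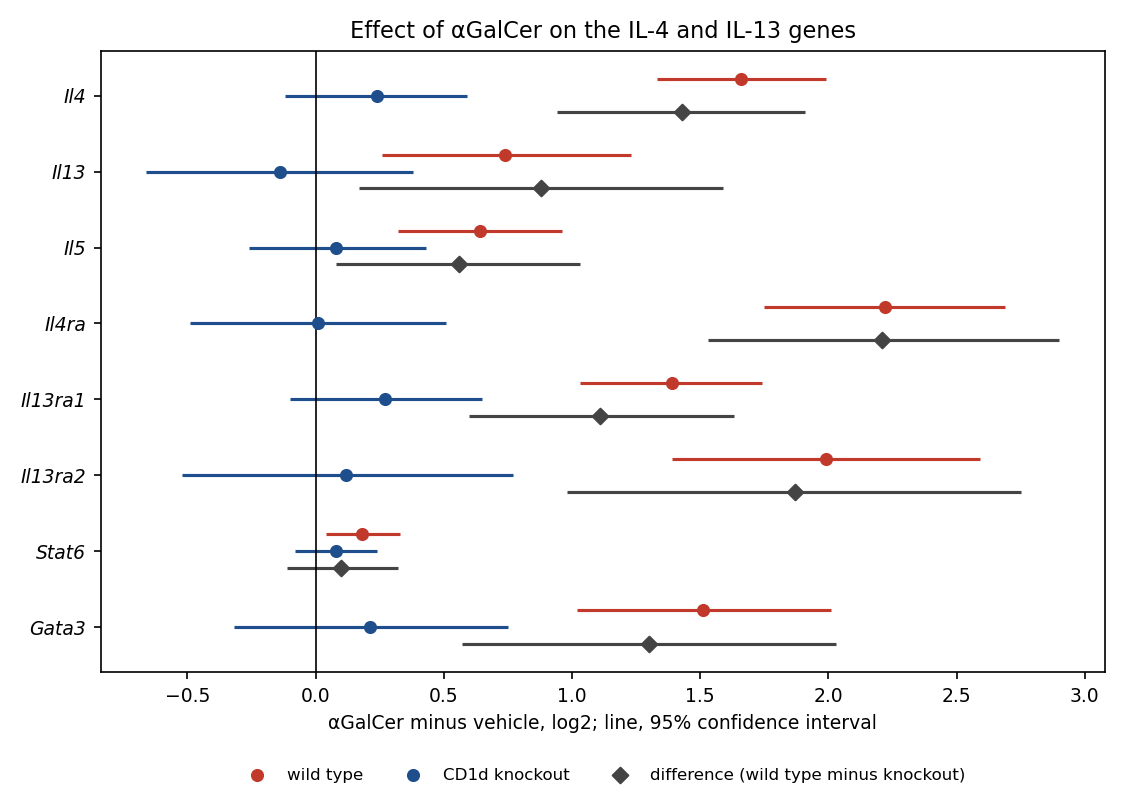
Change after αGalCer (log2, horizontal axis) in wild type fat, in CD1d knockout fat, and the difference between them, for each measured gene; points and diamonds are fitted values and lines their 95% confidence intervals. The wild type intervals lie right of 0 for all 8 genes, the knockout intervals all cross 0, and the interval of the difference crosses 0 for Stat6.

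After vehicle the genotypes were not called different for any of the 8 genes by limma, where 0.0903% of all genes were called higher in the knockout and 0.0213% lower. At an unadjusted p under 0.05 there were 1258 genes in all. The knockout minus wild type values ran from -0.18 for Il13ra2 to 0.26 for Il13. For Il13ra2 the 3 knockout arrays (2.99 to 3.06) lay below the 3 wild type arrays (3.10 to 3.30), close to the lowest signals of the arrays, and the adjusted p was 0.948. After αGalCer 7 of the 8 genes were lower in knockout than in wild type fat, where 19.2% of all genes were called lower and 21.9% higher. Il4ra was lower by 2.07 in the knockout and Il4 by 1.46, while Il13 (-0.62, adjusted p = 0.0388) and Il5 (-0.48, 0.019) were lower by less. Stat6 did not pass (-0.09, adjusted p = 0.328). This comparison shares its arrays with the previous ones. The Il13 call was lost without any 1 of wild type αGalCer replicates 1 and 4 or knockout αGalCer replicates 1, 2 and 3 (adjusted p up to 0.124), and without the 3 knockout arrays with muscle transcripts (-0.64, adjusted p = 0.0979). The Il5 call was lost without any 1 of wild type αGalCer replicates 1 and 4 or knockout αGalCer replicates 1 and 2 (adjusted p up to 0.0758).

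Profiles over the 13 arrays were compared after each gene was centred on its own mean, by the root mean square (RMS) difference in log2 units. Among the members the nearest pair was Il13 and Il5 (0.207), followed by Il13ra1 and Gata3 (0.256). For the 5 genes whose group means spanned at least 1 unit, the nearest of all other genes were named. For Il4 these were Cdc6, a DNA replication factor (0.156), Cd6, a T cell surface receptor (0.159), and Gpr85 (0.162). For Il4ra they were Ltb4r1, the leukotriene B4 receptor of leukocytes (0.176), Plekhn1 (0.21) and Irf1, an interferon-induced factor (0.211).

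Il13ra1 ran closest to Lpcat2, a lysophospholipid acyltransferase of inflammatory cells (0.112), Ckap4 (0.166) and Mctp2 (0.176). Il13ra2 ran closest to Trem3, a myeloid receptor (0.186), Mefv, the pyrin gene of myeloid cells (0.274), and Padi4, an enzyme of neutrophils that converts arginine to citrulline (0.285). Gata3 ran closest to Gpr18 (0.194), Grap2, an adaptor of T cell receptor signalling (0.198), and Fut4 (0.2). The likeness is a description over 13 arrays that share their groups.

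The other STAT genes tested did not move together. Of 5 measured, 3 rose and none fell in wild type fat (median 0.51), where 19.8% of all genes rose and 22% fell. These shares apply to each gene list below. Stat4, which relays IL-12 in T and NK cells, rose by 3.42 ± 0.27 (limma, adjusted p = 6.51e-07), Stat2, which relays type I interferons, by 1.34 ± 0.13, and Stat3 by 0.51 ± 0.11. Stat5a (-0.18 ± 0.10, adjusted p = 0.169) and Stat5b (0.12 ± 0.08, 0.287) did not pass. The Stat6 interval of 0.04 to 0.33 ended below the fitted change of each of the 3 that rose. For Stat4 the rise exceeded that in the knockout (0.79 ± 0.29) by 2.63 ± 0.40 (adjusted p = 0.00031).

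Among the kinases, adaptors and inhibitors around the IL-4 receptor, 9 of 10 genes were measured, and 5 rose and 3 fell (median 0.44). All 3 measured JAK kinases rose, Tyk2 by 0.99 ± 0.12, Jak2 by 0.76 ± 0.19 and Jak1 by 0.44 ± 0.08. Socs1, the feedback inhibitor that binds JAKs, rose by 2.81 ± 0.35 (adjusted p = 2.56e-05), and Ptpn6, the phosphatase SHP-1 of blood cells, by 2.55 ± 0.20. The insulin receptor substrates, which Il4ra also engages, fell: Irs1 by 1.44 ± 0.10 (adjusted p = 2.17e-07) and Irs2 by 0.58 ± 0.13. The phosphatase SHP-2, Ptpn11, fell by 0.82 ± 0.10, and Socs5 did not pass (0.22 ± 0.11, adjusted p = 0.122). In the knockout limma called 0 of the 9, and 2 (Ptpn6 and Ptpn11) had an unadjusted p under 0.05. The difference between genotypes was called for 6 of the 9, 3 in each direction, against 13.9% and 14.3% of all genes. Without knockout vehicle replicate 1, or with array weights, 5 were called with a larger rise in wild type fat. Adipocytes, which use IRS proteins to respond to insulin, lost marker signal in the same arrays, as given below. Whether this bears on the values of Irs1 and Irs2 was not tested.

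The receptors that share a chain with, or are built like, the IL-4 receptor were measured for all 10 genes, of which 6 rose and 1 fell (median 1.43). The IL-2 and IL-15 receptor chain Il2rb rose by 3.76 ± 0.23, the IL-21 receptor Il21r by 3.21 ± 0.17 and the IL-7 receptor Il7r by 2.64 ± 0.32. These chains work with the common γ chain. The β chain for IL-3, IL-5 and GM-CSF, Csf2rb, also rose, by 1.70 ± 0.14, and the related β chain Csf2rb2 by 1.92 ± 0.20. These 2 genes are near-identical copies, so their separate values are uncertain. Crlf2, a receptor chain for the epithelial cytokine TSLP, rose by 1.16 ± 0.13. Il5ra, the specific chain for IL-5, fell by 0.39 ± 0.11 (adjusted p = 0.0124, or 0.0573 without wild type vehicle replicate 2). Il2ra (0.44 ± 0.18, adjusted p = 0.0619), Il9r (0.08 ± 0.11, 0.604) and Il15ra (-0.16 ± 0.12, 0.357) did not pass, although Il2ra passed without wild type vehicle replicate 2 (0.0181) or wild type αGalCer replicate 3 (0.0352).

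**Figure D3:**
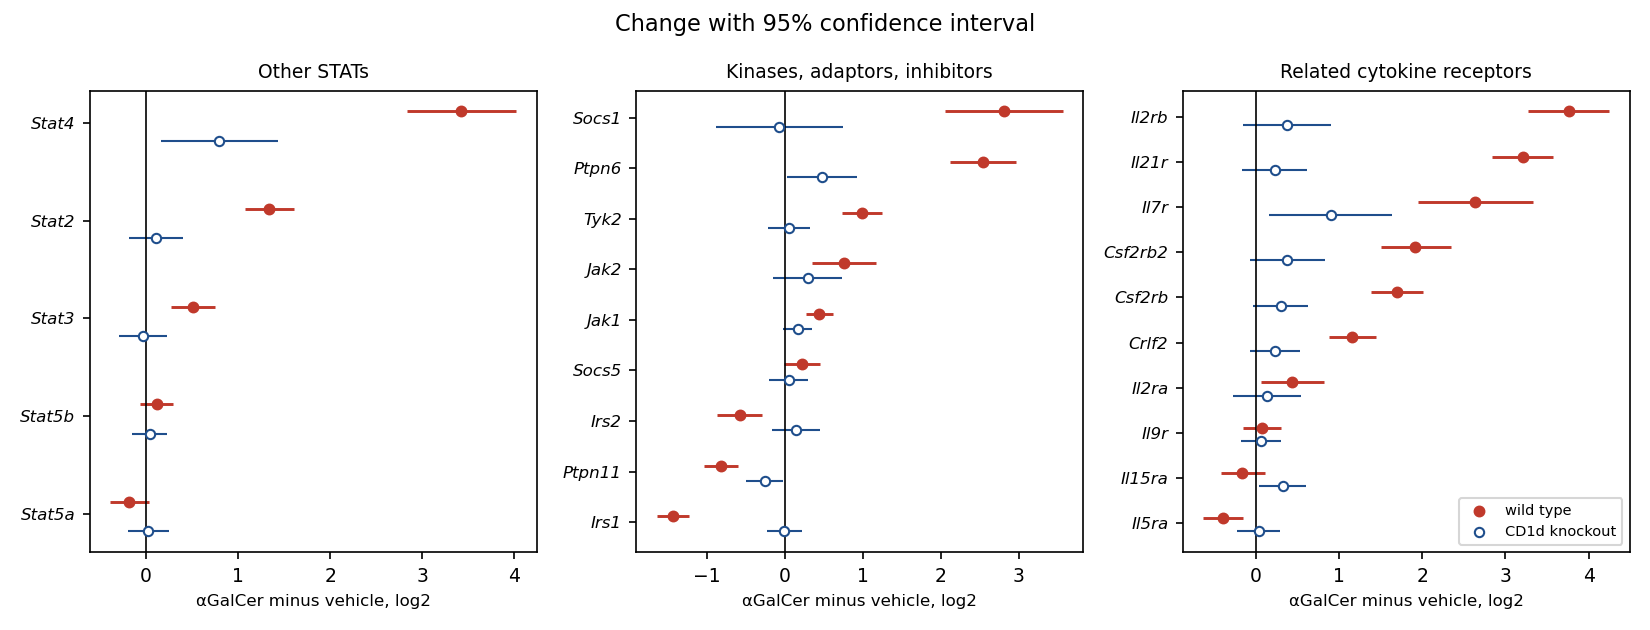
Change after αGalCer (log2, horizontal axis) of other STAT genes, of kinases, adaptors and inhibitors of the IL-4 receptor, and of related cytokine receptors; filled points are wild type fat, open points CD1d knockout fat, and lines 95% confidence intervals. Il2rb (3.76) and Stat4 (3.42) lie farthest right in wild type fat and Irs1 (-1.44) farthest left.

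Most macrophage genes known to respond to IL-4 rose in wild type fat. Of 27 listed, 26 were measured, and 21 rose, 2 fell and 3 did not pass (median 1.83, against -0.018 over all genes). Of all genes, 19.8% rose and 22% fell. The list was chosen with earlier results of these data known. Pdcd1lg2, the checkpoint ligand PD-L2, rose by 5.51 ± 0.15 from a mean level of 4.21 to 9.72 (limma, adjusted p = 2.86e-10). Arg1, the arginase of alternatively activated macrophages, rose by 5.14 ± 0.44 from 7.17 to 12.30, and Tfec, a macrophage transcription factor, by 3.94 ± 0.12. Chil3, a chitinase-like secreted protein, went from 4.02 to 11.09, but it has near-identical relatives, so which copy was measured is uncertain. Pparg, the adipocyte factor that also acts in macrophages, fell by 1.03 ± 0.10. Alox15, a lipoxygenase, fell by 0.94 ± 0.30 (adjusted p = 0.0215), a call that was lost without wild type vehicle replicate 2 or 3 or wild type αGalCer replicate 2, 3 or 4 (adjusted p from 0.0522 to 0.121). Without wild type vehicle replicate 3 its value was -0.60, and with only the wild type arrays in the fit its adjusted p was 0.0614. In the knockout limma called 0 of the 26, and 3 (Cdh1, Ppargc1b and Il1rn) had an unadjusted p under 0.05. The genotype difference was called for 19 with a larger rise in wild type (13.9% of all genes) and 2 with a larger fall (14.3%). The 2 became 1 without wild type vehicle replicate 2 or 3, wild type αGalCer replicate 2, 3 or 4, any knockout vehicle array, knockout αGalCer replicate 1 or 3, or the 3 arrays with muscle transcripts.

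**Figure D4:**
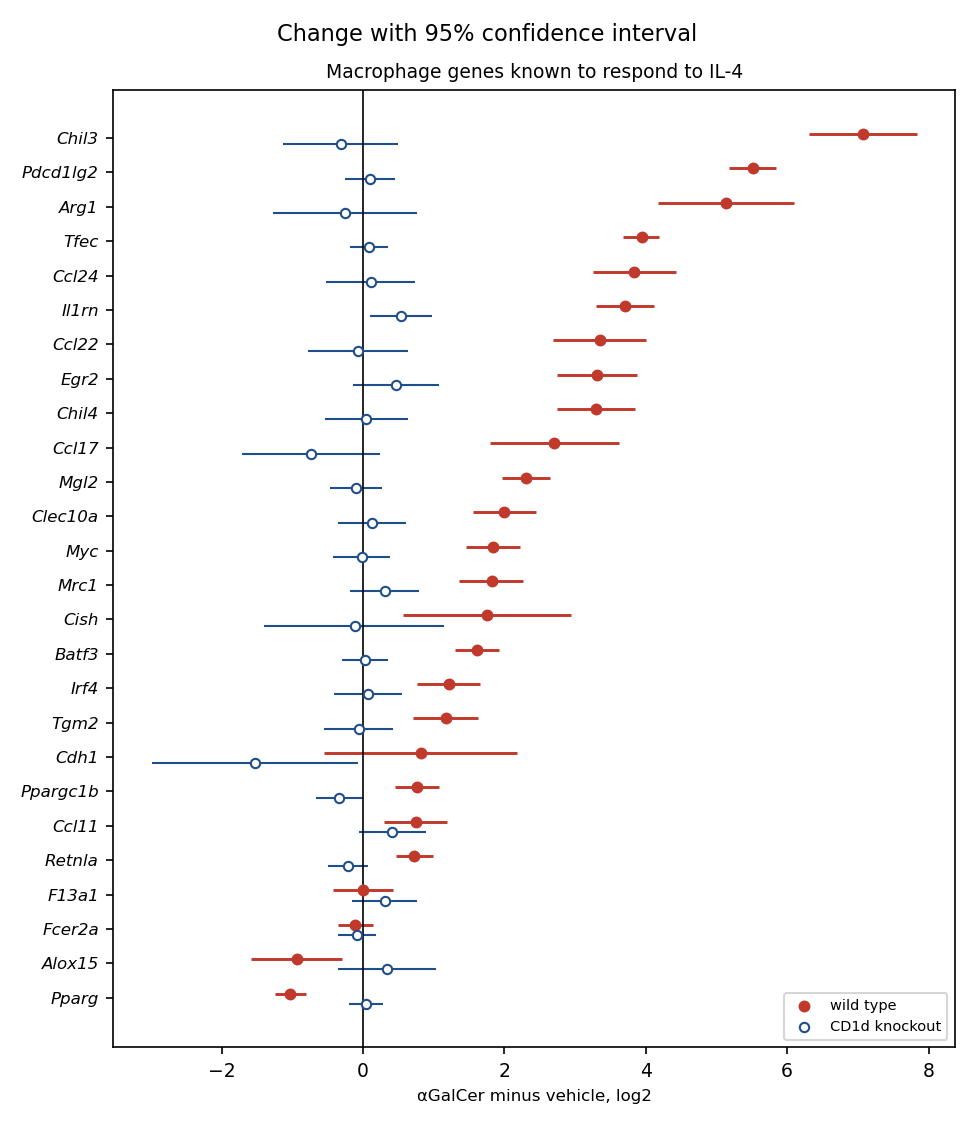
Change after αGalCer (log2, horizontal axis) of 26 macrophage genes known to respond to IL-4; filled points are wild type fat, open points CD1d knockout fat, and lines 95% confidence intervals. Chil3 (7.07), Pdcd1lg2 (5.51) and Arg1 (5.14) lie farthest right in wild type fat, while Pparg (-1.03) and Alox15 (-0.94) lie left of 0.

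Promoter sequences were also read for these macrophage genes. The table of promoters held 18 of the 27 genes. Among these, 6 (33.3%) had TTCNNNNGAA in a window, as did 8.01% of all 27025 genes. TTCNNNGAA, the spacing of other STATs, was in 17.2% of their 29 windows, against 8.3% of all windows. For TTCNNNNGAA those shares were 24.1% and 6.95%. The matches of TTCNNNNGAA, the spacing that STAT6 is known for, are shown in 40-base stretches, 5′ to 3′ on the strand of the gene. Capitals mark the match, and Il4 is repeated for comparison.
Il4, chr11:53618808-53618847, minus strand: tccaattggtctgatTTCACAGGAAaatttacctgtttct
Pdcd1lg2, chr19:29410822-29410861, plus strand: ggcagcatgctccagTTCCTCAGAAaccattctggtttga
Tfec, chr6:16898617-16898656, minus strand: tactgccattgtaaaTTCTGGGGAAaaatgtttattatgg
Il1rn, chr2:24345155-24345194, plus strand: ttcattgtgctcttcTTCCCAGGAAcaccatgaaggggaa
Ccl17, chr8:94810284-94810323, plus strand: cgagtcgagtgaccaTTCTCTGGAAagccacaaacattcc
Retnla, chr16:48842449-48842488, plus strand: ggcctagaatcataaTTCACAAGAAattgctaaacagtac
Fcer2a, chr8:3691005-3691044, minus strand: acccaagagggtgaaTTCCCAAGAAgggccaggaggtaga
Of these 6 macrophage genes, 5 rose, where 21 of all 26 measured genes of the list rose. Besides Pdcd1lg2 and Tfec, the 5 included Il1rn, the IL-1 receptor antagonist (3.70 ± 0.19), Ccl17, a chemokine for CCR4-bearing T cells (2.70 ± 0.42), and Retnla, the secreted protein RELMα (0.72 ± 0.12). Fcer2a, the low-affinity IgE receptor, did not pass (-0.11 ± 0.12, adjusted p = 0.503). Chil3 rose without this match in its window, which held TTCNNNGAA, and Arg1 is among the genes whose promoter was not read. A match of these letters is no measured binding site, and no test was made of the share.

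Factors that act with GATA3 in type 2 lymphocytes mostly rose. Of 8 genes, 6 rose and 1 fell (median 1.08), where 19.8% of all genes rose and 22% fell. Batf rose by 1.93 ± 0.13, Junb by 1.48 ± 0.19, Nfatc2 by 1.41 ± 0.12 and Gfi1 by 1.18 ± 0.18, all of which are known to act in activated T cells. Bhlhe41, which is also a clock gene, fell by 1.13 ± 0.14. Factors of other lymphocyte lineages were measured for 4 of 6 genes, and 3 of these rose (median 2.72). Eomes rose by 3.52 ± 0.33, Runx3 by 2.77 ± 0.19 and Tbx21, the T-bet factor of type 1 responses, by 2.66 ± 0.16. Bcl6, of follicular helper T cells, did not pass (-0.19, adjusted p = 0.764).

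Other lymphocyte cytokines rose beside Il4. Of 9 measured, 5 rose and 4 did not pass (median 0.60), where 19.8% of all genes rose. Ifng, the interferon of type 1 responses, rose by 3.17 ± 0.19 (adjusted p = 1.01e-07), Tnf by 2.78 ± 0.33, the regulatory cytokine Il10 by 1.43 ± 0.19 and Csf2, which encodes GM-CSF, by 0.71 ± 0.10. The fitted rise of Ifng was thus above the interval for Il4 (1.33 to 1.99) and those for Il13 (0.26 to 1.23) and Il5 (0.32 to 0.96). RMA compresses dim probe sets, so these sizes cannot be ranked as amounts of RNA. Il2, Il9, Il17a and Il3 did not pass (fitted changes of 0.22, 0.16, 0.03 and 0.08).

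The genes around the cytokine cluster on chromosome 11 were called about as often as genes in general. In the order of the RefSeq table, Kif3a precedes Il4, and Il13, Rad50, Il5 and Irf1 follow it. Of 14 listed neighbours, 2 rose and 4 fell (median -0.13), where 19.8% of all genes rose and 22% fell. Irf1 rose by 2.16 ± 0.14, or by 1.24 where the mean of its probe sets stood for the gene, and Pdlim4 by 0.42 ± 0.11 (adjusted p = 0.00986, or 0.0523 without wild type vehicle replicate 1). Shroom1 (-1.10 ± 0.29), Aff4 (-0.79 ± 0.11) and Slc22a4 (-0.56 ± 0.16) were among those that fell, the last with an adjusted p of 0.066 without wild type vehicle replicate 2. Rad50, between Il13 and Il5, whose introns are known to hold control elements of the cluster, was at 0.17 ± 0.28 (adjusted p = 0.683), and Kif3a was at -0.19 ± 0.13 (0.294).

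Markers of cell types that make or receive these cytokines moved in the same arrays. Where 19.8% of all genes rose, all 10 measured T cell markers of 12 did so (median 2.00). Their mean log2 level was 5.05 to 5.13 on wild type vehicle arrays, 7.0 to 7.41 after αGalCer, 5.07 to 5.30 in knockout fat after vehicle and 5.14 to 5.46 in knockout fat after αGalCer. Of 6 genes listed as NKT cell markers 5 rose (Slamf6 by 3.91 ± 0.11). Their means were 5.56 to 5.93 and 7.53 to 7.93 in wild type fat and 5.65 to 5.8 and 5.88 to 6.15 in the knockout. After vehicle 0 of the 6 were called different between the genotypes (0.0903% of all genes higher in the knockout, 0.0213% lower). The median knockout minus wild type value was 0.02. The list thus did not tell the genotypes apart after vehicle, and its rise cannot be read as NKT cells alone. Zbtb16, the factor that defines NKT cells but is also made by other cells of fat, fell by 1.76 ± 0.19 from a level of 11.18. Of 9 macrophage markers 8 rose, with means of 8.44 to 9.14 and 10.27 to 10.42 in wild type fat and 8.95 to 8.99 and 9.07 to 9.51 in the knockout. Their part in the rise of the members was not tested.

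The known sources of type 2 cytokines in fat gave a mixed picture. Of 4 measured ILC2 markers of 6, Klrg1 and Icos rose by 3.26 ± 0.17 and 2.22 ± 0.17, Rora fell by 0.91 ± 0.17 and Hpgds did not pass. T cells also make Klrg1 and Icos. The list means were 5.85 to 6.32 and 7.02 to 7.66 in wild type fat and 5.94 to 6.40 and 6.35 to 6.46 in the knockout. Of 4 measured eosinophil markers of 6, Siglecf rose by 0.39 ± 0.11, while Epx (0.21), Prg2 (-0.08) and Ccr3 (0.57) did not pass. Their means were 4.27 to 4.74 and 4.75 to 4.86 in wild type fat and 4.56 to 4.65 and 4.80 to 4.89 in the knockout. The treated arrays thus lay above the vehicle arrays in both genotypes, in wild type fat by a narrow margin (4.75 against 4.74). Of single genes, 46.7% had separate groups in wild type fat. No such share was computed for list means or for the knockout. In the knockout limma called 0 of the 4, and Ccr3 went from a mean of 4.76 to 5.37. Of 11 mast cell and basophil markers 2 rose (Hdc by 1.49 ± 0.34, Cd200r3 by 0.31 ± 0.08), 2 fell (Kit by 0.95 ± 0.19, Cpa3 by 0.92 ± 0.27) and 7 did not pass, shares close to the 19.8% and 22% of all genes. Their means were 4.95 to 5.05 and 4.84 to 5.15 in wild type fat and 5.04 to 5.15 and 4.98 to 5.05 in the knockout. RMA gives no zero, so no marker was listed at 0.

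Markers of the tissue itself and of tissues that dissection can add moved as well. All 6 adipocyte markers fell in wild type fat (median -1.13), with means of 12.23 to 12.36 after vehicle and 10.53 to 11.31 after αGalCer, against 12.31 to 12.47 and 12.36 to 12.42 in the knockout. Of 6 ductal epithelium genes, 3 fell and 1 rose. Their means were 6.84 to 7.90 and 5.94 to 6.33 in wild type fat and 6.24 to 8.65 and 5.74 to 6.08 in the knockout. Of 5 measured epididymis genes 1 fell. Their means were 3.82 to 4.99 and 3.65 to 3.77 in wild type fat and 3.73 to 3.79 and 3.75 to 3.93 in the knockout. None of 8 muscle genes was called in wild type fat by limma, nor did any have an unadjusted p under 0.05. Their means were 4.95 to 5.01 and 4.82 to 5.72 in wild type fat, and 5.53 to 8.06 and 5.12 to 8.39 in the knockout. Of 5 measured B cell markers 1 rose, with means of 5.05 to 5.23 in wild type and 5.19 to 5.68 in knockout fat. None of 4 lymph node markers was called or had an unadjusted p under 0.05, and their means lay between 4.81 and 5.27. The part of these tissues in the members' values was not tested.

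**Figure D5:**
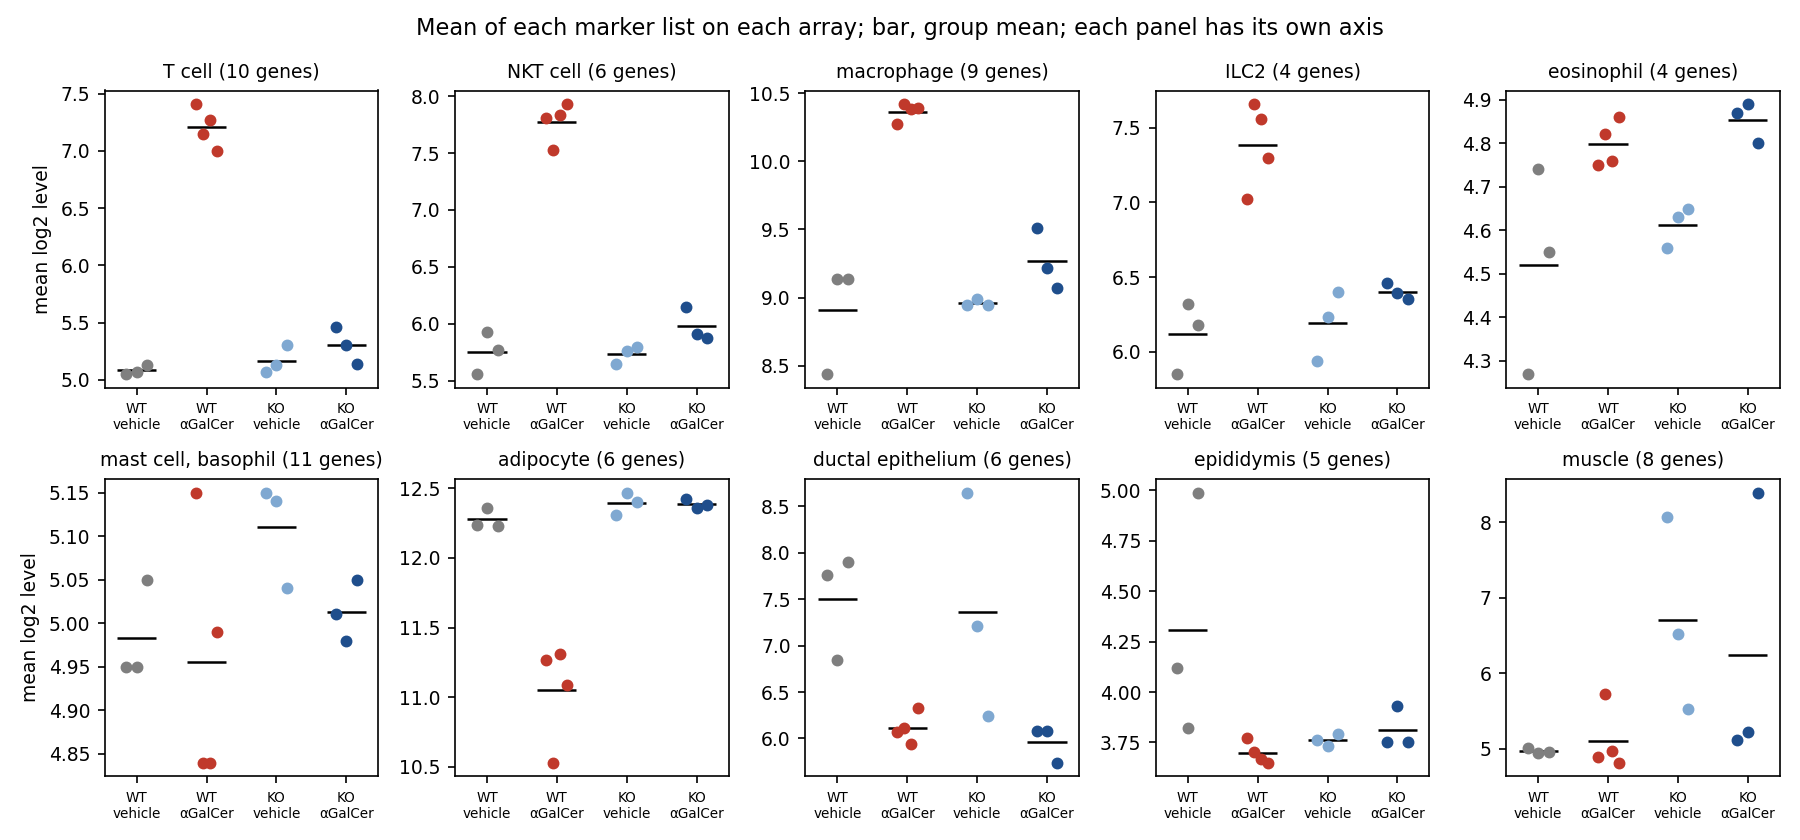
Mean log2 level of each marker list on each array, by genotype (WT, wild type; KO, CD1d knockout) and injection; points are arrays, bars are group means, and each panel has its own axis. T cell, NKT cell, macrophage and ILC2 lists are highest in the treated wild type arrays, adipocyte genes are lowest there, and muscle genes reach 8.06 and 8.39 on single knockout arrays.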

How the data were processed

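RNA of epididymal fat was measured on 13 Affymetrix arrays in the 4 groups that the labels give. The values are log2 levels per probe set that the authors deposited, made with RMA (background correction, quantile normalisation and summary of probes) per the submitters' processing notes. The genome build of the array annotation is not given in the sources used here. Labelling used 100 ng of total RNA with an RNA integrity number above 8.0, per the labels' protocols. Nothing says that replicates were separate animals, so p-values describe only the spread between these samples, and that spread may be technical. Precision is limited by the number of arrays.

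Of 35556 probe sets, 21218 had exactly 1 symbol. Symbols were updated through Entrez identifiers for 21185 of these and through accessions for 3, and 30 were kept. The probe set with the highest mean stood for a gene. All 13 arrays entered 1 limma model (version 3.58.1, in R 4.3.3). It fitted group means, with 9 residual degrees of freedom, and eBayes used an intensity trend. Tests were two-sided, and every adjusted p is limma's, adjusted by the Benjamini-Hochberg method over 18818 genes. The model was tested on simulated data.

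The members and the gene lists were chosen with earlier results of these data known. The rule named all members, all STAT, IL-4 signalling and receptor genes, and from the other lists up to 4 called rises and 3 called falls in wild type fat. It also named the 3 nearest profiles of members whose group means span at least 1. Neighbouring genes, marker genes, cytokines that did not pass, and genes whose promoters held a motif were named outside it, after their values were seen. The alternatives changed the eBayes options, left out dim genes or single arrays, repeated the normalisation, weighted arrays, changed the probe set rule, added a replicate block or made the calls stricter. Genes without a probe set of their own symbol, such as Il2rg and Jak3, were not analysed here.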

Additional observations from a re-analysis of the deposited data

Results flagged for a closer look

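The effect of αGalCer differed between the genotypes by limma's test of the difference for 5 of the 8 measured genes, always with the larger rise in wild type fat. Of all genes, 13.9% were called in that direction and 14.3% in the other. For Il4 the difference was 1.43 (adjusted p = 0.00038), and all 4 treated wild type arrays lay above all 9 others. For Il4ra it was 2.21 (adjusted p = 0.000196), for Il13ra1 1.11 (0.00323), for Il13ra2 1.87 (0.00372) and for Gata3 1.3 (0.0104), and in each of these genes too the 4 treated wild type arrays lay above the other 9. The share of all genes with that separation was not computed. Between the 2 wild type groups alone, 46.7% of all genes were separate. No array of the treated wild type group stood apart from its group for any of the 8 genes by Dixon's test. With only 4 arrays this test has little power, so it does not show that no array was an outlier. Groups of 3 arrays were not tested in this way.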

How the results depend on the processing

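With dim genes left out, Il4, Il13, Il5, Il13ra2 and Gata3 were not tested, and 3 genes rose in wild type fat, the difference was called for 2, and 2 were lower in knockout than wild type fat after αGalCer (8, 5 and 7 with all genes). Without the 3 knockout arrays with muscle transcripts the difference was called for 2. Leaving out 1 array at a time gave 6 to 8 rises in wild type fat, 5 to 7 differences and 5 to 7 genes lower in the treated knockout. Il4 and Il4ra stayed called in wild type fat and for the difference under every alternative in which they were tested.

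Values near 0 that were not called changed sign. Il4ra in the knockout was -0.007 with repeated quantile normalisation, -0.021 without the 3 muscle arrays, and -0.129 to 0.129 with 1 array left out. Il5 in the knockout was -0.023 with array weights, -0.139 without the muscle arrays, and -0.015 to 0.145 with 1 array left out. After vehicle, the genotype difference of Stat6 was -0.005 with either repeated normalisation or median centring, -0.008 with array weights, -0.017 without the muscle arrays, and -0.019 to 0.028 with 1 array left out. That of Il4ra was -0.116 with array weights. That of Il4 was 0.137 without the muscle arrays and -0.121 to 0.017 with 1 array left out, and that of Gata3 -0.369 to 0.287. Il9r in wild type fat ran from -0.005 to 0.138 with 1 array left out. The cause was not tested.

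Array weights called 175 rises and 147 falls among all genes in the knockout, none of them a member, and also called the differences of Il13 (0.0161) and Il5 (0.00934). Same-numbered arrays of different groups correlated at -0.20 to 0.48, not all above 0.1, and the labels give no shared litter or day, so the numbers were not taken to pair the samples. With the replicate number as a block, 8 members rose in wild type fat and 5 differences were called, and after αGalCer Il13 (-0.586, adjusted p = 0.0765) and Il5 (-0.368, 0.0775) were no longer called lower in the knockout, leaving 5. The block also ended the wild type calls of Il33 (0.712, 0.0613) and Alox15 (-0.89, 0.0672). Dim signals limit Il5, Il13ra2 and vehicle Il4 most.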

Other observations

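The cytokines Il33, Tslp, Il25 and Il18 and some of their receptors were also listed, and 6 of 7 genes were measured. In wild type fat after αGalCer 3 rose and 1 fell (median 0.30), where 19.8% of all genes rose and 22% fell. Il18r1, the IL-18 receptor of lymphocytes, rose by 1.07 ± 0.27 (limma, adjusted p = 0.00532), Il33, the alarmin that activates ILC2s, by 0.92 ± 0.29 (0.0234) and Il18 by 0.64 ± 0.14 (0.00178). Il17rb, a receptor for IL-25, fell by 0.79 ± 0.27 (adjusted p = 0.0333). Tslp (-0.21 ± 0.17) and Il25 (-0.05 ± 0.11) did not pass. The difference between genotypes was called for 0 of the 6 by limma, while Tslp and Il18, 2 genes, had an unadjusted p under 0.05. It was called for 1 gene without wild type αGalCer replicate 1, for 2 with array weights, and for 1 in the other direction without knockout αGalCer replicate 3 or without the 3 arrays with muscle transcripts. The Il33 call was lost without wild type vehicle replicate 1 or wild type αGalCer replicate 1 or 4 (adjusted p from 0.0623 to 0.114) and with only the wild type arrays in the fit (0.0564), and the Il17rb call without wild type vehicle replicate 1 or 3 or wild type αGalCer replicate 1, 2 or 3 (0.0515 to 0.146).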
